A study of Saccharomyces paradoxus and Saccharomyces cerevisiae and Nakaseomyces glabratus with 58 samples.

Results

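Trehalose and glycogen are the storage carbohydrates of budding yeast, and this section follows the messenger RNA of the enzymes that make and break them in 6 yeast species in which the transcription factor gene SFP1 was deleted or altered. The starting set was 10 S. cerevisiae genes: TPS1, TPS2, TSL1, NTH1, GSY1, GSY2, GPH1, GLC3, GDB1 and PGM2. In the other species, a row of the deposited count table was included when the deposited orthology table placed it in an orthogroup, a set of genes of common descent, with 1 of these genes. This gave 57 rows of 36369: 10 in S. cerevisiae, 10 in S. paradoxus, 13 in C. glabrata, 12 in N. castellii, 5 in K. lactis and 7 in S. pombe. The rule itself uses names and orthology and no measured value, but the genes were chosen with earlier results of these data known. No row of S. paradoxus carried NTH1 or GPH1, none of K. lactis carried TPS2, NTH1 or GDB1, and none of S. pombe carried GDB1, GLC3, GPH1 or the glycogen synthases, so these were not analysed here.

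Trehalose is built from UDP-glucose and glucose 6-phosphate by the synthase Tps1 and the phosphatase Tps2, which sit in a complex with the regulatory subunits Tsl1 and Tps3, and neutral trehalase splits it again. Glycogen is built by the glycogen synthases Gsy1 and Gsy2 and the branching enzyme Glc3, and is taken apart by the phosphorylase Gph1 and the debranching enzyme Gdb1, while phosphoglucomutase (Pgm2) converts glucose 6-phosphate into glucose 1-phosphate and back. Both stores are known to build up in S. cerevisiae when growth slows or stress sets in, and many of these genes carry stress response elements that the activators Msn2 and Msn4 bind.

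Polyadenylated RNA was sequenced from cells grown in a medium abbreviated BMW. The groups were S. cerevisiae wild type, delta sfp1 and a strain with HA tagged Sfp1; S. paradoxus wild type and delta sfp1; C. glabrata wild type, delta CAGL0D00682g and delta CAGL0M09955g; N. castellii wild type, delta Scas551.1 and delta Scas719.24; K. lactis wild type and delta sfp1; and S. pombe wild type and libraries labelled delta sfp1. All were taken in log phase at an optical density of 0.6 to 0.8, and both S. paradoxus strains were also taken in lag phase, 30 and 60 min after glucose was given back. Each of the 19 groups had 3 libraries, A to C, and the labels do not say whether these came from separate cultures or how many clones a strain represents, so a p-value here speaks of the spread among these libraries alone, which may be technical.

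Total counts per library ranged from 1360916 to 3447874 in log phase outside S. pombe, from 712972 to 2252092 in S. pombe and from 34081 to 640282 in the S. paradoxus lag phase, where deletion library A at 30 min was the shallowest. A single row held 34.2% to 39.1% of a library's counts in C. glabrata, 18.3% to 25.1% in K. lactis and 13.0% to 17.2% in N. castellii. In S. cerevisiae the top row held 2.34% to 2.72%. The targeted genes followed the labels in 5 species: SFP1 had 561 counts over the 3 S. cerevisiae wild type libraries, 0 in the deletion and 509 in the HA strain, and the targeted genes of S. paradoxus, C. glabrata, N. castellii and K. lactis kept 0 to 5 counts per deletion group. In S. pombe, SFP1 kept 226 counts in the libraries labelled delta sfp1, against 403 in the wild type, so the direction there rests on the labels alone. The S. paradoxus groups also differed in mating type markers: STE2, the receptor made by a cells, stood at 619 CPM and STE3, the receptor made by alpha cells, at 5.80 CPM in the wild type log libraries, whereas all other S. paradoxus groups were low in STE2 (13.7 to 21.2 CPM) and high in STE3 (322 to 558 CPM). Within S. paradoxus log phase, mating type and the SFP1 deletion therefore cannot be told apart. CPM, the unit used throughout, is the count of a gene per 1e+06 counts of the library's total scaled by TMM, a normalization that assumes that most genes do not differ.

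The promoter stretches of 4 S. cerevisiae genes are shown because they carry the strongest decreases and the single increase described next. Each is the reference sequence of R64, RefSeq's S. cerevisiae assembly, from 400 to 101 bases before the start codon, written 5′ to 3′ on the gene's strand, with the stress response element AGGGG, or CCCCT on the other strand, in capitals. They are GPH1 at chrXVI:860906-861205 (plus strand), GSY1 at chrVI:176492-176791 (minus strand), PGM2 at chrXIII:477707-478006 (minus strand) and TPS1 at chrII:490493-490792 (minus strand).
GPH1: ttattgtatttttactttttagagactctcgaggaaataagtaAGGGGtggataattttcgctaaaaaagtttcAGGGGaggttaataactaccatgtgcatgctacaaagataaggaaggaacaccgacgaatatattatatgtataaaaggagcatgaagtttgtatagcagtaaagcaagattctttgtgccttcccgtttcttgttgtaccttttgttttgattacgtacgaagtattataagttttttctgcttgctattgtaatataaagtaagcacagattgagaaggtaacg
GSY1: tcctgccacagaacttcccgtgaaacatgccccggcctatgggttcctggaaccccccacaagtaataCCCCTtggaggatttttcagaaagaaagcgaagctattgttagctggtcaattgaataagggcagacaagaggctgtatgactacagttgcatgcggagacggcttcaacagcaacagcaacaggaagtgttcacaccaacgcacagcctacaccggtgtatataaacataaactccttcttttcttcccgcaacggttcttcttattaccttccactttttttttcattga
PGM2: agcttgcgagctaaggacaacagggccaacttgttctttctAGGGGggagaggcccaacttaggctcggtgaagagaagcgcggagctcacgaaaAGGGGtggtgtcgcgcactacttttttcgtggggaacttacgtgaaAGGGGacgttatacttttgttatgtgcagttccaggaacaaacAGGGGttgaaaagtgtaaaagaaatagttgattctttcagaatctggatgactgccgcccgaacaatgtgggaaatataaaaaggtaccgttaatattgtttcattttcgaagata
TPS1: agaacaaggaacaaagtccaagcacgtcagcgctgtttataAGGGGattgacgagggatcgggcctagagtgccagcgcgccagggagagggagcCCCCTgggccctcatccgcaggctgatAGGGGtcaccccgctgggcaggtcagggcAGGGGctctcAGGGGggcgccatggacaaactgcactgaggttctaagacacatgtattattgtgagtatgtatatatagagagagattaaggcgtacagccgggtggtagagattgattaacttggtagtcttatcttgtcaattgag
The printed stretches hold 2, 1, 4 and 5 such elements. In a window of 500 bases that ends at the same place, all 10 genes had at least 1 AGGGG on either strand, with 36 in total and 1 to 6 per gene, whereas 35.2% of 5991 windows of that length in the annotation had 1 or more. The post-diauxic element AGGGAT, which shares its first letters with the stress element, was found in 3 of the 10 windows and in 15.7% of all windows. The ribosome biogenesis element AAAATTTT was found in none of the 10 and in 11.6% of all. These are matches of letters and were not tested as binding sites.

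In wild type S. cerevisiae, the level per kilobase of coding sequence was highest for TPS1, at 202 CPM per kb, followed by GSY2 at 91.2, TPS2 at 67.7 and TSL1 at 66.8. NTH1 (61.8), GSY1 (60.9) and PGM2 (60.3) followed within their spread over libraries, then GPH1 at 46.2, GLC3 at 28.8 and GDB1 at 13.2 CPM per kb. In the deletion, the same scale ran from 292 CPM per kb for TPS1 to 5.98 for GSY1 and 3.82 for GPH1, so that the glycogen phosphorylase passed from the eighth to the lowest place.

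In the S. cerevisiae SFP1 deletion, transcripts for both the making and the breaking of glycogen were lower, most strongly those of glycogen phosphorylase and of the minor glycogen synthase. Of the 10 genes, 8 were lower, 1 was higher and NTH1 did not pass, by edgeR's quasi-likelihood test at an adjusted p below 0.05, where 25.9% of the 5836 genes tested were lower and 26.1% were higher. The median log2 fold change of the 10 was -0.80, beside 0.03 over all genes tested. Total messenger RNA per cell was not measured, so levels are relative to the other transcripts of a library.

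GPH1 (YPR160W, R64 chrXVI:861306-864014, plus strand, 1 coding exon), glycogen phosphorylase, stood at 129.9, 125 and 121 CPM in wild type libraries A to C. Its deletion libraries held 9.09, 11.9 and 10.05 CPM. Every deletion library was far under every wild type library, and the log2 fold change was -3.59 ± 0.12 (SE, adjusted p = 1.21e-12), that is 12.1-fold lower. GSY1 (YFR015C, R64 chrVI:174265-176391, minus strand, 1 coding exon), the minor glycogen synthase, was at 128, 129.5 and 130.4 CPM in the wild type. It was at 15.0, 11.2 and 11.9 CPM in the deletion, again without overlap. The log2 fold change was -3.34 ± 0.12 (SE, adjusted p = 3.5e-12), or 10.1-fold lower.

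GSY2 (YLR258W), the major glycogen synthase, was at 192, 179.9 and 208 CPM in the wild type and at 85.6, 78.2 and 74.0 CPM in the deletion. Its groups did not overlap, but its decrease was smaller than that of its paralog, -1.28 ± 0.09 on the log2 scale (SE, adjusted p = 2.16e-09). Reads that match both synthases equally well could have been split between them by the estimate behind the counts, so the size of the difference between the paralogs is uncertain. GLC3 (YEL011W), the branching enzyme, was at 66.5, 62.0 and 54.1 CPM in the wild type against 29.2, 33.3 and 34.1 CPM in the deletion. It fell by 0.90 ± 0.11 (log2, SE, adjusted p = 2.16e-06), with no overlap. GDB1 (YPR184W), the debranching enzyme, had the mildest decrease, from 62.7, 55.2 and 64.2 CPM to 41.4, 48.0 and 41.7 CPM (log2 fold change -0.47 ± 0.11, SE, adjusted p = 0.00279). Scaled by library size alone, it stood at -0.24 and was not called (adjusted p = 0.067).

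PGM2 (YMR105C), the major phosphoglucomutase, was at 112, 91.7 and 105 CPM in the wild type and at 34.2, 40.3 and 30.4 CPM in the deletion. This was the third strongest decrease of the set (log2 fold change -1.55 ± 0.13, SE, adjusted p = 2.75e-08). PGM1, its paralog, changed by -0.02 on the log2 scale and was not called, and reads shared by the paralogs could blur this difference too.

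On the trehalose side, TSL1 and TPS2 were lower, NTH1 was not called, and TPS1 was called higher, a direction that turned to -0.39 on the log2 scale with chromosome II centred on its median. TSL1 (YML100W), a regulatory subunit, was at 221, 209.9 and 229.5 CPM in the wild type and at 139, 132 and 134 CPM in the deletion (log2 fold change -0.71 ± 0.06, SE, adjusted p = 7.93e-08). TPS2 (YDR074W), the phosphatase, went from 190.3, 164 and 192 CPM to 118, 133 and 129 CPM (-0.52 ± 0.09, SE, adjusted p = 0.000119). Neither gene's groups overlapped. NTH1 (YDR001C), neutral trehalase, was at 162, 124 and 133 CPM against 128, 141 and 142 CPM, so its groups overlapped, and its log2 fold change was 0.00 ± 0.09 (SE, adjusted p = 0.99); with library size alone it was called higher (0.23, adjusted p = 0.0401).

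TPS1 (YBR126C, R64 chrII:488905-490392, minus strand, 1 coding exon), the synthase itself, was at 283, 305 and 312 CPM in the wild type and at 471, 393 and 441 CPM in the deletion. All deletion libraries were above all wild type libraries, with a log2 fold change of 0.53 ± 0.07 (SE, adjusted p = 4.84e-06). TPS1 lies on chromosome II, and the 382 tested genes of that chromosome had a median log2 fold change of 0.93 in this comparison, whereas the medians of the other 15 chromosomes lay between -0.07 and 0.08. The value of TPS1 was thus 0.40 below the median of its chromosome. When each chromosome was centred on its own median in each library, a fit chosen after seeing the data, the log2 fold change of TPS1 was -0.39 ± 0.07 (SE, adjusted p = 0.000219) and the set held 9 lower and 0 higher genes. The share of all genes called in that fit was not computed, so this count cannot be read as particular to the set. In the authors' deposited table, with its sign turned to deletion over wild type, TPS1 stood at -0.42. The authors' value minus that of the uncentred fit was -0.95 for TPS1 and 0.04 to 0.05 for the other 9 genes. How the authors treated chromosome II is not known here, so their value is not an independent check on the centring. The other 9 genes lie on other chromosomes. DNA copy number was not measured, and its part in the value of TPS1 was not tested.

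**Figure D1:**
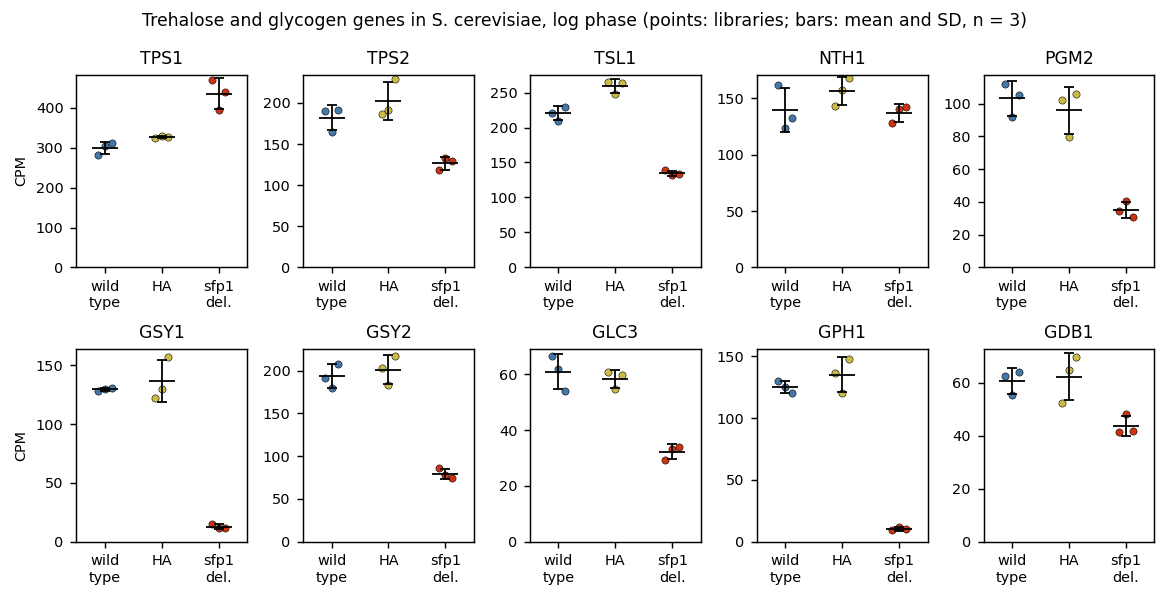
Level of the 10 S. cerevisiae genes in each library, in CPM, for wild type, HA tagged Sfp1 and the sfp1 deletion; points are libraries and the marks give mean and SD (n = 3). The 3 deletion libraries of GPH1 lie between 9.09 and 11.9 CPM and those of GSY1 between 11.2 and 15.0 CPM, below all other libraries of these genes, while TPS1 is highest in the deletion, a direction that turns when chromosome II is centred on its median.

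**Figure D2:**
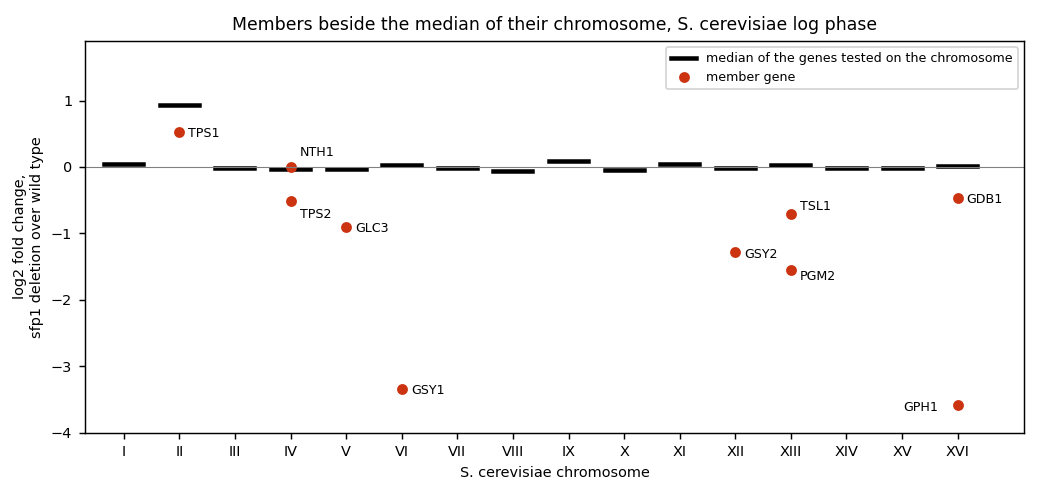
Median log2 fold change of all tested genes of each S. cerevisiae chromosome in the sfp1 deletion over wild type (short horizontal bars), with the 10 enzyme genes as points on their own chromosome. Chromosome II stands at 0.93 and the others lie between -0.07 and 0.08; TPS1 is the only one of the 10 on chromosome II and lies under its bar.

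The HA tagged strain served as a second comparison with the same wild type libraries. None of the 10 genes was called there and the share called over all genes was 0% in each direction; unadjusted p-values were below 0.05 for 319 genes, TSL1 the sole member among them, while DESeq2 found 6 genes. The 10 genes had a median log2 fold change of 0.09, beside 0.00 over all genes. TSL1 was at 265, 248 and 264 CPM in the HA strain, with a log2 fold change of 0.24 (edgeR quasi-likelihood, adjusted p = 0.384). GPH1 was at 137, 121 and 148 CPM and GSY1 at 123, 129.8 and 157 CPM, far above the deletion libraries and near those of the wild type.

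In S. paradoxus, the closest relative measured, deletion of SFP1 in log phase was accompanied by higher transcripts of nearly the whole set. Of the 10 rows, 9 were higher and 1 was lower by edgeR's quasi-likelihood test, where 24.8% of 4908 genes were higher and 32.6% were lower. The median log2 fold change was 0.81, beside -0.05 over all genes. For all 10 rows the 3 deletion libraries lay on one side of the 3 wild type libraries. The share of all genes separated in this way was not computed, so this count cannot be read as particular to the set. Rows that share an orthogroup are given by their identifiers, since the orthology table does not say which S. cerevisiae paralog each corresponds to.

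The glycogen synthase row Spar_12.373 was at 17.2, 14.6 and 16.07 CPM in the wild type and at 76.1, 73.3 and 62.0 CPM in the deletion. Its log2 fold change of 2.14 ± 0.20 (SE, adjusted p = 2.95e-11) was the largest of the 10. The second synthase row, Spar_6.115, rose from a mean of 17.3 ± 2.48 to 34.7 ± 2.69 CPM (SD, n = 3; log2 fold change 0.98 ± 0.18, SE, adjusted p = 1.94e-05 by edgeR). The branching enzyme row Spar_5.76 (GLC3) went from 23.4, 17.2 and 24.5 CPM to 49.2, 57.1 and 47.9 CPM, a log2 fold change of 1.26 ± 0.18 (SE, adjusted p = 3.2e-07). The debranching enzyme row Spar_16.559 (GDB1) was at 53.7, 40.9 and 53.6 CPM against 67.0, 57.1 and 72.2 CPM (0.44 ± 0.13, SE, adjusted p = 0.00531), a small step with the libraries just separated. Without wild type library B it stood at 0.29 and did not pass (adjusted p = 0.0889).

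On the trehalose side, the phosphatase row Spar_4.376 (TPS2) was at 162, 172 and 168 CPM in the wild type and at 274, 255 and 246 CPM in the deletion (0.63 ± 0.10, SE, adjusted p = 2.43e-06). The 3 rows of the orthogroup that holds TPS1, TSL1 and TPS3 were all higher. Spar_13.42 rose by 1.49 ± 0.11 and Spar_13.454 by 0.60 ± 0.11 (log2, SE; adjusted p = 7.75e-14 and 1.93e-05). Spar_2.283 was at 257, 274 and 241 CPM in the wild type and at 721, 765 and 702 CPM in the deletion, with a log2 fold change of 1.499 ± 0.10 (SE, adjusted p = 4.03e-15), again without overlap.

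The 352 tested rows whose names begin with Spar_2 had a median log2 fold change of 0.70 in this comparison, whereas those of the other 15 name blocks lay between -0.21 and 0.01. Of the Spar_2 rows with a single S. cerevisiae ortholog on the reference, 227 of 228 had it on chromosome II. With each block centred on its own median, again a fit chosen after seeing the data, Spar_2.283 stood at 0.82 ± 0.09 (SE, adjusted p = 5.08e-09), and the authors' deposited table gives it 0.84 after turning the sign. The authors' value minus that of the uncentred fit was -0.66 for Spar_2.283 and 0.11 to 0.12 for the other rows of the set. Their value is therefore not an independent check on the centring. No block of this kind was seen in the HA strain, C. glabrata, N. castellii, K. lactis or S. pombe, where the farthest block median was 0.11. The 2 phosphoglucomutase rows went in opposite directions: Spar_13.281 rose by 0.44 ± 0.14 and Spar_11.131 fell by 0.31 ± 0.10 (log2, SE; adjusted p = 0.00862 and 0.0107). The decrease of Spar_11.131 was not called with RLE factors, with DESeq2 or without deletion library C (-0.23, adjusted p = 0.0854), and its direction turned, to 0.19, when only library size was used.

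After glucose was given back, wild type S. paradoxus had lower transcripts for 8 of the 10 rows at 30 min than in log phase, where 30.6% of genes were lower and 25.1% were higher. The median log2 fold change was -1.89. Spar_2.283 was at 26.5, 43.7 and 31.1 CPM at 30 min, far under its log phase values (log2 fold change -2.90 ± 0.17, SE), and Spar_6.115 and Spar_13.42 fell by 2.30 and 2.13. The glycogen synthase Spar_12.373 fell by 1.33 (adjusted p = 0.0199), a call lost without wild type library B at 30 min (-0.82, adjusted p = 0.197). The exceptions were the phosphoglucomutase row Spar_11.131 and GDB1, which stayed at 50.6, 56.5 and 53.9 CPM (0.15 ± 0.19, SE, adjusted p = 0.53). The mating type markers also changed between these wild type groups, from high STE2 to high STE3, so phase and mating type cannot be told apart there.

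The deletion strain, whose log and lag libraries were both high in STE3, had 9 rows lower at 30 min than in log phase, where 24.3% of genes were lower and 31.5% were higher, with a median of -1.90. GDB1 was among them here: its 30 min libraries held 0, 16.60 and 19.0 CPM, the 0 being the shallow library, and its log2 fold change was -1.93 ± 0.28 (SE). The row not called was again the phosphoglucomutase Spar_11.131. The difference between the 2 strains' responses was called for GDB1 alone among the 10, at -2.07 ± 0.35 (log2, SE, adjusted p = 2.28e-05 by edgeR), where 20.1% of genes had a higher and 11.6% a lower response in the deletion. This contrast includes the wild type log libraries, the one S. paradoxus group high in STE2. A difference in response and a difference in mating type therefore cannot be told apart in it.

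Compared directly at 30 min, 4 rows were higher and GDB1 was lower in the deletion, where 28.3% of genes were higher and 24.6% were lower; the median was 0.61, beside 0.13 over all genes. GDB1 fell by 1.64 ± 0.33 (log2, SE, adjusted p = 7.98e-05), and by 1.58 without the shallow library (adjusted p = 0.000124). The rows called higher were Spar_2.283 (1.25 ± 0.25, SE), GLC3 (1.70 ± 0.56), Spar_12.373 (1.60 ± 0.59) and Spar_13.454 (0.67 ± 0.27). With the 2 groups fitted alone, 1 row was called higher, and GLC3 and Spar_12.373 were too low in counts to be tested. Their tests here were made because the filter on low counts drew on all S. paradoxus groups, log phase included. Spar_2.283 was at 53.7, 80.6 and 85.7 CPM against 26.5, 43.7 and 31.1 CPM, without overlap, and stood at 0.67 (adjusted p = 0.0239) after centring its block, whose median was 0.64. Without deletion library C at 30 min only Spar_2.283 remained higher, and GLC3, Spar_12.373 and Spar_13.454 stood at 1.44, 0.47 and 0.29 with adjusted p of 0.122, 0.701 and 0.54. Without wild type library B at 30 min, Spar_12.373 (1.10, adjusted p = 0.138) and Spar_13.454 (0.56, adjusted p = 0.125) did not pass, and Spar_13.454 did not pass without wild type library C (0.66, adjusted p = 0.0707), with RLE factors (0.56, adjusted p = 0.0772), with DESeq2 (0.55, adjusted p = 0.105), with each block centred (0.58, adjusted p = 0.0668) or with the 2 groups fitted alone (0.64, adjusted p = 0.0533). TPS2, at 0.55 with an adjusted p of 0.0529, passed without wild type library C (0.97, adjusted p = 0.00363). The 3 rows lost without deletion library C were read at 0 in the shallow library.

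At 60 min, TPS2 was the single row called, at 59.0, 71.3 and 55.9 CPM in the wild type and 85.4, 84.0 and 95.3 CPM in the deletion (0.50 ± 0.18, log2, SE, adjusted p = 0.0193), where 25.8% of genes were higher and 25.0% were lower. Its call was lost without deletion library C (0.44, adjusted p = 0.0828), wild type library A (0.46, adjusted p = 0.0655) or wild type library C (0.44, adjusted p = 0.0733). Spar_2.283 stood at 0.05 ± 0.17 (SE, adjusted p = 0.816), and at -0.48 (adjusted p = 0.0162) after centring its block, whose median was 0.59.

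From 30 to 60 min the wild type regained part of the trehalose synthase transcripts and lost GDB1. Spar_2.283 rose by 1.40 ± 0.22, to 86.8, 84.3 and 104 CPM, and Spar_13.454 rose by 1.21 ± 0.22, while GDB1 fell by 1.08 ± 0.26, to 22.6, 22.7 and 31.9 CPM (log2, SE); 16.7% of genes were higher and 19.9% were lower. In the deletion none of the 10 was called by edgeR over this interval, where 7.97% of genes were higher and 14.7% were lower; unadjusted p-values were below 0.05 for 1642 genes and 1 of the 10, while DESeq2 found 966 genes. The strains' changes differed for Spar_2.283 (-1.19 ± 0.30, log2, SE, adjusted p = 0.00463) and for GDB1 (1.43 ± 0.45, SE, adjusted p = 0.0275), where 7.82% of genes had a lower and 7.52% a higher change in the deletion. The latter call was lost in 5 of the fits that left out 1 library: without deletion library B (1.39) or C (1.61) or wild type library B (1.39) at 30 min, and without deletion library C (1.30) or wild type library A (1.35) at 60 min, with adjusted p between 0.0515 and 0.0851. At 60 min GDB1 was at 25.7 ± 5.37 CPM in the wild type and 21.9 ± 2.99 CPM in the deletion (SD, n = 3), a log2 difference of -0.20 with a 95% interval of -0.78 to 0.38.

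**Figure D3:**
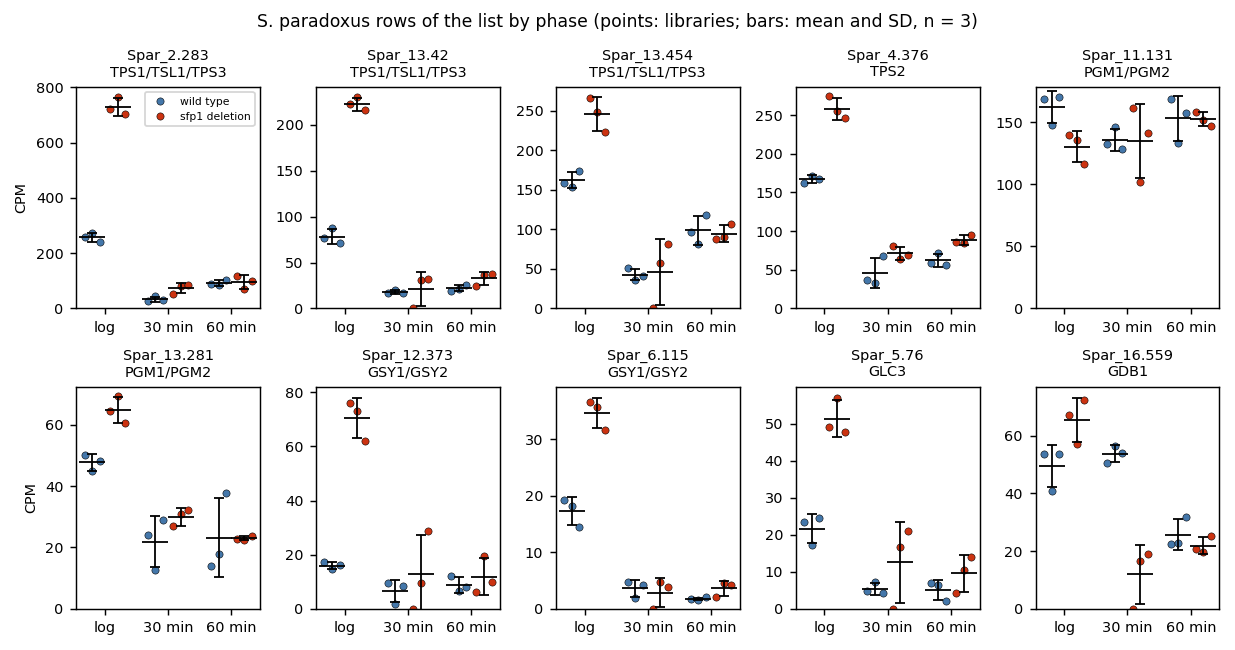
Level of the 10 S. paradoxus rows in CPM in log phase and 30 and 60 min after glucose repletion, for wild type and the sfp1 deletion; points are libraries, marks and bars give mean and SD (n = 3), with bars stopped at 0. In log phase the deletion lies above the wild type for all rows but Spar_11.131, and most rows are low in both strains at 30 min, while GDB1 (Spar_16.559) falls later in the wild type.

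C. glabrata has a pair of SFP1 genes, and the deletions of the 2 genes differed. Without CAGL0D00682g none of the 11 rows tested was called, where 0.378% of 4766 genes were higher and 0.189% were lower by edgeR; unadjusted p-values were below 0.05 for 461 genes and 2 of the 11 rows, while DESeq2 found 20 genes. The median was 0.04. A second trehalase row (CAGL0C04323g) and a second phosphoglucomutase row (CAGL0K03421g) had 0 to 3.97 CPM in all libraries and did not pass the filter on low counts.

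Without CAGL0M09955g, 5 of the 11 rows were higher and none was lower, where 15.0% of genes were higher and 18.6% were lower, with a median of 0.29 beside 0.02 over all genes. Glycogen phosphorylase (CAGL0F04895g, GPH1) was at 29.3, 28.0 and 25.9 CPM in the wild type and at 40.3, 43.6 and 46.2 CPM in the deletion (0.65 ± 0.13, log2, SE, adjusted p = 5.6e-05). The glycogen synthase row CAGL0K10626g was at 26.3, 25.8 and 27.1 CPM against 41.0, 50.0 and 35.9 CPM (0.68 ± 0.14, SE, adjusted p = 7.05e-05). Both were separated between the groups.

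The branching enzyme row CAGL0M03377g was at 7.44, 9.90 and 10.4 CPM in the wild type and at 15.4, 13.9 and 15.9 CPM (0.68 ± 0.22, SE, adjusted p = 0.0109). The phosphoglucomutase row CAGL0K07480g rose by 0.35 ± 0.08 (SE, adjusted p = 0.000192). The second synthase row, CAGL0F04719g, was called at 0.54 ± 0.20 (SE, adjusted p = 0.03), although its libraries overlapped, with 16.4, 17.6 and 12.1 CPM against 20.9, 29.7 and 15.9 CPM, and it stood at 0.27 without deletion library B (adjusted p = 0.392) and at 0.38 without wild type library C (adjusted p = 0.207). The branching enzyme call was lost without wild type library A (0.56, adjusted p = 0.0668), and with DESeq2 neither this row (adjusted p = 0.0851) nor CAGL0F04719g (adjusted p = 0.154) passed. The trehalose rows, 3 of the synthase complex orthogroup, TPS2 and the trehalase CAGL0M10439g, were not called.

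Set against each other, the CAGL0D00682g deletion was lower than the CAGL0M09955g deletion for 4 rows, where 12.3% of genes were lower and 17.1% were higher. They were GPH1 (-0.77, log2), the synthase complex row CAGL0H02387g (-0.65) and both glycogen synthase rows, CAGL0K10626g (-0.59) and CAGL0F04719g (-0.49). The call of CAGL0F04719g was lost without library A or B of either deletion, with values from -0.56 to -0.23 and adjusted p from 0.056 to 0.487, and with the replicate letter as a block (adjusted p = 0.0511). The call of CAGL0H02387g was lost without library B of the CAGL0M09955g deletion (-0.53, adjusted p = 0.0512), and with DESeq2 neither row passed (adjusted p = 0.0503 for CAGL0H02387g and 0.221 for CAGL0F04719g). GPH1 was at 26.0, 25.0 and 25.2 CPM without CAGL0D00682g, below every library without CAGL0M09955g.

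In N. castellii the glycogen synthase row NCAS0D00640 and the branching enzyme were higher in both deletions, and neutral trehalase was lower in both. The deletions share their wild type libraries. Without Scas551.1, 2 of 12 rows were higher and 1 was lower, where 21.4% of 5338 genes were higher and 20.4% were lower, and the median was 0.01, beside 0.03 over all genes. Without Scas719.24, 7 were higher and 1 was lower, where 14.8% were higher and 11.3% were lower, and the median was 0.33, beside 0.01.

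NCAS0D00640 was at 50.2, 46.8 and 40.3 CPM in the wild type, at 111, 114 and 117 CPM without Scas551.1 and at 126, 158 and 117 CPM without Scas719.24. Both deletions were above the wild type in every library, with log2 fold changes of 1.31 ± 0.12 and 1.54 ± 0.11 (SE, adjusted p = 6.37e-09 and 2.32e-10). The second synthase row, NCAS0A08870, was not called in either (-0.09 and 0.24). The branching enzyme row NCAS0G03140 was at 69.9, 75.6 and 77.8 CPM in the wild type, 133, 111 and 101 CPM without Scas551.1 and 120.2, 153 and 135 CPM without Scas719.24, again separated (0.63 ± 0.11 and 0.87 ± 0.11, SE, adjusted p = 7.66e-05 and 1e-06).

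Glycogen phosphorylase (NCAS0F03660) was at 52.3, 56.2 and 48.6 CPM in the wild type and 64.1, 60.1 and 61.8 CPM without Scas551.1, a difference that did not pass (0.24 ± 0.16, SE, adjusted p = 0.232). Without Scas719.24 it was at 86.4, 132 and 81.2 CPM (0.93 ± 0.14, SE, adjusted p = 1.73e-05), with 1 library well above the other 2. The debranching enzyme row NCAS0A15250 was at 29.2, 27.8 and 28.4 CPM in the wild type and 38.6, 44.9 and 39.4 CPM without Scas719.24 (0.52 ± 0.13, SE, adjusted p = 0.00427). These rows also differed between the 2 deletions, by -0.69 ± 0.15 for GPH1 and -0.81 ± 0.15 for GDB1 (log2, Scas551.1 over Scas719.24, SE; adjusted p = 0.00108 and 0.00027), where 12.9% of genes were lower and 11.3% were higher. With library size alone, GDB1 without Scas719.24 stood at 0.37 (adjusted p = 0.0539) and the difference of GPH1 between the deletions at -0.36 (adjusted p = 0.0513).

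Neutral trehalase (NCAS0E01490) was at 81.4, 104 and 97.9 CPM in the wild type, 56.2, 62.1 and 52.3 CPM without Scas551.1 and 69.7, 67.0 and 65.9 CPM without Scas719.24. All deletion libraries were below the wild type ones (-0.72 ± 0.11 and -0.48 ± 0.10, SE, adjusted p = 1.19e-05 and 0.000772). The other rows higher without Scas719.24 were the phosphoglucomutase NCAS0A04350 (0.44) and the synthase complex rows NCAS0I00930 (0.35) and NCAS0A11280 (0.32). Without wild type library B, NCAS0I00930 stood at 0.28 (adjusted p = 0.0553), and NCAS0A11280 did not pass without deletion library A or C or wild type library A or C (0.29 to 0.30, adjusted p 0.0759 to 0.111) or with DESeq2 (adjusted p = 0.142). With library size alone none of these 3 rows passed, at 0.29 for NCAS0A04350 (adjusted p = 0.0574), 0.19 for NCAS0I00930 (adjusted p = 0.185) and 0.16 for NCAS0A11280 (adjusted p = 0.313). TPS2, the third complex row NCAS0B01000 and the second phosphoglucomutase row NCAS0F01470 were called in neither deletion.

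K. lactis had the largest increase of all 57 rows among the log phase deletions, in glycogen phosphorylase. KLLA0F10065g (GPH1) was at 54.5, 55.3 and 57.1 CPM in the wild type and at 383, 369.8 and 356 CPM in the deletion. Its log2 fold change was 2.73 ± 0.08 (SE, adjusted p = 3.34e-15), or 6.64-fold higher. The single trehalose synthase row, KLLA0B08822g, was at 254, 268 and 230.0 CPM against 671, 630.0 and 564 CPM (1.31 ± 0.08, SE, adjusted p = 1.05e-10).

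The phosphoglucomutase row KLLA0B12694g was at 153, 162 and 170.1 CPM in the K. lactis wild type and 298, 299 and 296 CPM in the deletion (0.88 ± 0.07, SE, adjusted p = 4.02e-09). The glycogen synthase and branching enzyme were not called: the branching enzyme KLLA0A11176g stood at 0.07 with a 95% interval of -0.15 to 0.30, and the synthase KLLA0F23133g at -0.11 with an interval of -0.24 to 0.03; without deletion library A the synthase was called lower (-0.19, adjusted p = 0.0401). So 3 of 5 rows were higher and none was lower, where 33.1% of 4941 genes were higher and 33.3% were lower, and the median was 0.88, beside 0.01 over all genes.

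**Figure D4:**
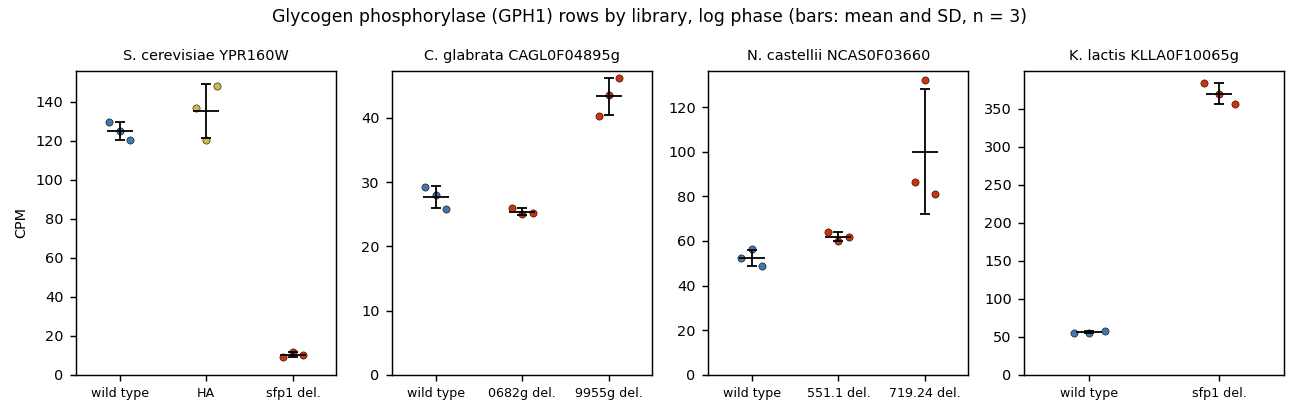
Glycogen phosphorylase (GPH1 orthogroup) in each log phase library of the 4 species with a row for it, in CPM; points are libraries and the marks give mean and SD (n = 3). The S. cerevisiae deletion libraries lie between 9.09 and 11.9 CPM, and the K. lactis deletion libraries between 356 and 383 CPM.

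In S. pombe, 1 of the 7 rows differed between the libraries labelled delta sfp1 and the wild type, where 3.19% of 5296 genes were higher and 6.82% were lower. SPAC22F8.05.1, of the TPS1, TSL1 and TPS3 orthogroup, was at 43.4, 35.5 and 46.2 CPM in the wild type and at 61.3, 61.1 and 63.4 CPM (0.56 ± 0.13, log2, SE, adjusted p = 0.0264). The call was lost with DESeq2 (adjusted p = 0.181), without any 1 of the 3 libraries labelled delta sfp1 (0.55 to 0.57, adjusted p 0.0539 to 0.0976) and without wild type library B (0.46, adjusted p = 0.0595). The trehalase SPBC660.07.1 stood at 0.20 ± 0.08 (SE, adjusted p = 0.182), and the remaining rows lay between -0.11 and 0.20.

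The deletion effects were then compared with that of S. cerevisiae over orthogroups with exactly 1 counted gene in both species, which holds for TPS2, GDB1, GLC3 and GPH1. All of these comparisons share the S. cerevisiae libraries, and a count of called orthogroups is set beside 33.3% called in either direction for S. paradoxus, 34.0% and 35.4% for the C. glabrata deletions (CAGL0D00682g and CAGL0M09955g), 41.0% and 39.7% for those of N. castellii (Scas551.1 and Scas719.24) and 53.7% for K. lactis. Of the 21 tests of these 4 orthogroups, 20 were called, each with a value above that of S. cerevisiae. The exception was GDB1 without Scas551.1 in N. castellii (0.18 ± 0.20, SE, adjusted p = 0.505). The call for GDB1 without CAGL0D00682g (0.49, adjusted p = 0.0261) was lost in 5 of the fits that left out 1 library, with values from 0.41 to 0.46 and adjusted p from 0.0545 to 0.102: S. cerevisiae deletion A or C or wild type C, C. glabrata deletion B or wild type A. That for TPS2 without Scas551.1 (0.38, adjusted p = 0.0118) was lost without library A of that deletion (0.32, adjusted p = 0.0531). With library size alone, TPS2 without Scas719.24 went from 0.50 to 0.12 (adjusted p = 0.453) and GDB1 without CAGL0D00682g to 0.28 (adjusted p = 0.248), and neither was called.

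For GPH1, the difference between the effect in the other species and that in S. cerevisiae was 6.32 ± 0.14 in K. lactis, 4.52 ± 0.20 and 3.83 ± 0.22 in N. castellii and 4.24 ± 0.19 and 3.47 ± 0.21 in C. glabrata (log2, SE). For GLC3 it ran from 0.97 in K. lactis to 2.16 in S. paradoxus. The S. paradoxus values cannot be told apart from the mating type difference between its log phase groups. The GPH1 differences without CAGL0D00682g and without Scas551.1 arise with the S. cerevisiae gene low and the gene of the other species not called. In K. lactis and without Scas719.24 or CAGL0M09955g the GPH1 rows were themselves called higher.

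**Figure D5:**
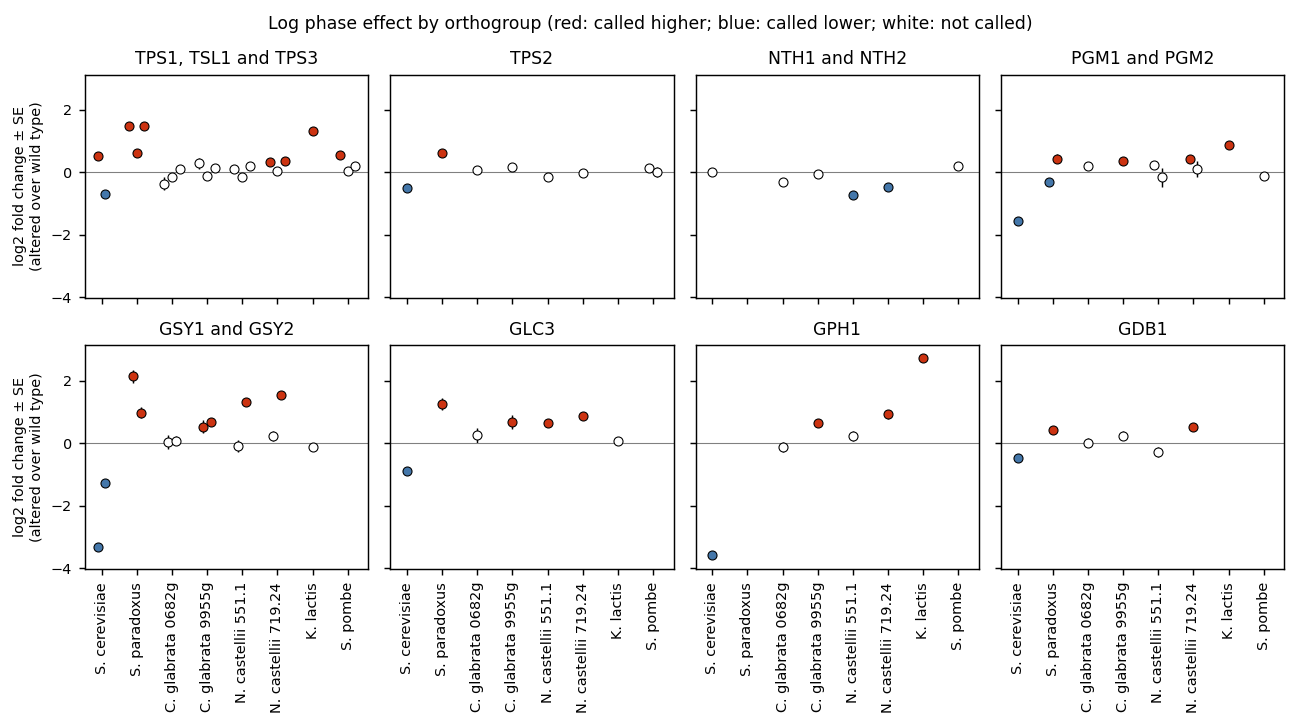
Log2 fold change with SE of every tested row in the 8 log phase comparisons with wild type, by orthogroup; red marks rows called higher, blue rows called lower and white rows not called. S. cerevisiae holds the decreases of GPH1 (-3.59) and GSY1 (-3.34), while the glycogen synthase rows Spar_12.373 of S. paradoxus (2.14) and NCAS0D00640 of N. castellii (1.31 and 1.54 in its 2 deletions) and GPH1 of K. lactis (2.73) are higher; the second N. castellii synthase row is not called. TPS1 of S. cerevisiae is drawn at 0.53 and turns to -0.39 when chromosome II is centred.

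Other genes of the pathway were counted in the same fits. Of 8 further enzyme genes in S. cerevisiae, 2 were higher and 2 were lower in the deletion, about the share over all genes (26.1% higher and 25.9% lower): the glucoamylase SGA1, known for breaking glycogen during sporulation, rose by 1.67 ± 0.27 (log2, SE, adjusted p = 7.86e-05 by edgeR), and the trehalase paralog NTH2, on chromosome II, rose by 1.29 and stood at 0.37 ± 0.07 (SE, adjusted p = 0.000559) after centring that chromosome. Lower were UGP1 (-0.45), which makes the UDP-glucose both pathways use, and TPS3 (-0.16). Of 14 regulators of these enzymes, 1 was higher and 3 were lower, and of 5 regulators of stress transcription, 0 were higher and 1 was lower, GIS1 (-0.92), with MSN2 (0.07) and MSN4 (-0.23) not called.

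In K. lactis, 2 of 3 further enzyme rows, 7 of 9 regulator rows and 5 of 5 rows listed as stress regulators were higher. The other 2 regulator rows were lower, where 33.1% of all genes were higher and 33.3% were lower. KLLA0C17072g, KLLA0F18524g and KLLA0F26961g of the stress list belong to a mixed orthogroup of MSN2, MSN4, NRG1, NRG2 and COM2. KLLA0C17710g belongs to that of GIS1 and RPH1. Which gene each row corresponds to is not given, here or for the same orthogroups in other species. SGA1 (KLLA0F04059g) was at 29.9, 29.4 and 27.3 CPM in the K. lactis wild type and 96.3, 87.0 and 91.9 CPM in the deletion, a log2 fold change of 1.67. The other rows of these lists that rose by at least 1 there were KLLA0F20229g (1.48) and KLLA0C17072g (1.05). KLLA0F20229g belongs to the DCS1 and DCS2 orthogroup, whose yeast members regulate trehalase, and KLLA0C17072g to the mixed orthogroup named above.

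In S. paradoxus log phase, 1 of 4 tested enzyme rows, 4 of 11 regulators and 3 of 8 stress regulators were higher and 2 regulators were lower, where 24.8% of all genes were higher and 32.6% were lower. The rows that rose by at least 1 were Spar_11.207 of the MSN2 and MSN4 orthogroup (1.25), which also holds other zinc finger genes, and Spar_15.375 of the orthogroup of the phosphatase subunit GAC1 (1.09). Among the lag phase comparisons of the strains, ATH1 (Spar_16.373), acid trehalase, was called higher at 30 min (adjusted p = 0.00141 by edgeR) from 0 counts in all wild type libraries against 0, 4 and 4 counts in the deletion, too few for a fold. Also higher at 30 min were Spar_11.207 (2.48), Spar_2.221 (2.60) and Spar_13.202 (1.29), all of the mixed orthogroup of MSN2, MSN4, NRG1, NRG2 and COM2. Spar_2.221 lies in the Spar_2 block, whose median was 0.64 at 30 min. The kinase YAK1 (Spar_10.93, 1.05) and Spar_16.104 (2.61) of the cyclins PCL8 and PCL10 were higher too. GLC7 (Spar_5.306, -1.36) and Spar_12.386 (-1.80) of DCS1 and DCS2 were lower, where 28.3% of all genes were higher and 24.6% were lower. At 60 min Spar_2.221 (1.58), in the block that is high throughout, and Spar_13.202 (1.15) were higher and GLC7 (-1.16) was lower, where 25.8% and 25.0% of all genes were.

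In C. glabrata none of 21 such rows was called without CAGL0D00682g, where 0.378% of all genes were higher and 0.189% were lower. Without CAGL0M09955g 9 were higher and 3 were lower, where the shares over all genes were 15.0% and 18.6%. The one past 1 was CAGL0M13189g (1.204), of the mixed orthogroup of MSN2, MSN4, NRG1, NRG2 and COM2. In N. castellii, of 26 tested, 6 were higher and 4 were lower without Scas551.1, where the shares over all genes were 21.4% and 20.4%, and 7 were higher and 1 was lower without Scas719.24, where they were 14.8% and 11.3%. The GAC1 orthogroup rows NCAS0F00360 (1.69 and 1.70) and NCAS0A13420 (1.08 and 1.16) were higher in both deletions. NCAS0E03140 of the same orthogroup was higher without Scas719.24 (1.12). NCAS0I01560, of the mixed orthogroup of MSN2, MSN4, NRG1, NRG2 and COM2, was lower without Scas551.1 (-1.24).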

How the data were processed

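Polyadenylated RNA of 57 samples with a count column was analysed, as 19 groups of 3 libraries in 6 species; the labels list 58 samples, and 1 S. cerevisiae wild type sample at 60 min was not used here. The deposited tables hold estimated counts (expected counts) per gene with no further normalization, and 57.1% to 97.4% of a library's values were whole within 1e-06. Per the labels, reads were paired and 25 bases long; per the submitters' processing notes, Bowtie 1, RSEM 1.2.11 and edgeR were used and the S. pombe build was ASM294v2, while for other species the build is not given in the sources used here. Log2 ratios were deposited by the authors too, wild type over altered strain as their signs against the counts show. Microarray log ratios of another kind were deposited as well, and their base, sign, replication and the samples compared are not stated.

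Counts were rounded and fitted per species, all groups together, with edgeR 4.0.16 (R 4.3.3; TMM, filterByExpr, glmQLFit and glmQLFTest); a call means that p, adjusted by Benjamini-Hochberg over every gene of the fit, was below 0.05, and the SE was derived from the log2 fold change and its F statistic. Between species, orthogroups with 1 counted gene in both entered a single fit with a term for the difference of effects. Other settings were DESeq2 1.42.0, RLE factors, library size alone, no filter, only the groups compared, the replicate letter as a block and leaving out each library, and, added after seeing the data, centring each chromosome on its median. The fit was also run on simulated counts, whose spread and number of changed genes were not matched to these data. No result here rests on that run. Also used were limma 3.58.1, matplotlib 3.10.9, scipy 1.17.1, pandas 2.3.3, numpy 2.4.6 and Python 3.11.15. Gene positions and promoters come from RefSeq's R64 assembly by systematic name, which matched 6013 of 6717 S. cerevisiae rows. Genes were named by membership in the set or, for the other pathway genes, when called and changed by at least 1 on the log2 scale; PGM1, UGP1, TPS3 and the stress regulators named were singled out after their values were seen. The members and lists were chosen with earlier results of these data known.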

Additional observations from a re-analysis of the deposited data

Results flagged for a closer look

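The effects of deletion on single-copy orthogroups differed from that in S. cerevisiae in 20 tests (edgeR, one fit per pair of species). Values are the log2 effect in the other species minus that in S. cerevisiae. Over all orthogroups, 33.3% (S. paradoxus) to 53.7% (K. lactis) were called in either direction. All tests share the S. cerevisiae libraries. Several of the effects in the other species were not themselves called. These were all those without CAGL0D00682g, TPS2 and GDB1 without CAGL0M09955g, and GLC3 in K. lactis. In N. castellii they were TPS2 in both deletions and GPH1 without Scas551.1. In S. paradoxus log phase, mating type and the deletion cannot be told apart. For glycogen phosphorylase GPH1 the difference was 6.32 in K. lactis, 4.52 without Scas719.24 and 3.83 without Scas551.1 in N. castellii, and 4.24 without CAGL0M09955g and 3.47 without CAGL0D00682g in C. glabrata. For the branching enzyme GLC3 it was 2.16 in S. paradoxus, 1.77 and 1.54 in N. castellii (Scas719.24 and Scas551.1), 1.58 and 1.15 in C. glabrata (CAGL0M09955g and CAGL0D00682g) and 0.97 in K. lactis. For TPS2 it was 1.14 in S. paradoxus, 0.70 and 0.59 in C. glabrata and 0.50 and 0.38 in N. castellii, in the same order of deletions; the 0.50 went to 0.12 and was not called with library size alone (adjusted p = 0.453). For GDB1 it was 0.91 in S. paradoxus, 0.71 and 0.49 in C. glabrata and 0.99 without Scas719.24 in N. castellii; the 0.49 went to 0.28 and was not called with library size alone (adjusted p = 0.248).

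Within S. paradoxus, the deletion effect on GDB1 (Spar_16.559) differed between 30 min and log phase by -2.07 and between 60 and 30 min by 1.43, and that on Spar_2.283, of the trehalose synthase orthogroup, differed between 60 and 30 min by -1.19 (log2; adjusted p = 2.28e-05, 0.0275 and 0.00463 by edgeR). Of these, the value for GDB1 between 60 and 30 min did not pass in 5 fits that left out 1 library. The value against log phase includes the wild type log libraries, which differ in mating type markers, and cannot be told apart from that difference.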

How the results depend on the processing

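Over all alternatives, 2688 of 2783 values of single rows stayed on their side of the threshold, 118 of them with another sign but not called; 61 lost and 31 gained a call, and 3 reversed. TPS1 in the S. cerevisiae deletion stood at -0.39 and Spar_2.283 at 60 min at -0.48 with chromosomes centred, and Spar_11.131 in log phase at 0.19 with library size alone. The count of rows called higher in the S. cerevisiae deletion was then 0 with chromosomes centred and 2 with library size alone. In S. paradoxus log phase the rows called lower were 0 with RLE factors, library size alone or DESeq2. At 30 min 1 row was called higher with only the 2 groups fitted, where 6 of 10 rows passed the filter; at 60 min it was 2 with library size alone, and 2 higher and 1 lower with chromosomes centred. With library size alone, rows called higher were 9 without CAGL0M09955g, 5 without Scas551.1, 3 without Scas719.24 and 4 in the S. paradoxus deletion from 30 to 60 min, where 2006 genes were called. Of all calls in these fits, 73.1% of 1741, 75.3% of 2221, 30.9% of 1700 and 85% of 2006 were higher, in that order. With that setting, rows called lower were 8 between the C. glabrata deletions, 1 between the N. castellii deletions (2351 genes called) and 3 for the S. paradoxus deletion effect at 30 min against log phase. Of all calls there, 28.3%, 92.3% and 25.5% were higher, in that order. With DESeq2, 3 rows were higher without CAGL0M09955g (1052 genes called, against 1602), 2 were lower between the C. glabrata deletions (900 genes, against 1403) and 0 were higher in S. pombe. The share of all genes called in each direction was not computed for these settings, so these counts cannot be read as particular to the set. The causes were not tested.

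Library size alone moved the median log2 fold change of all genes by 0.23 in the S. cerevisiae deletion, where 73.9% of calls were then higher against 50.1%, by 0.50 in S. paradoxus log phase (80.9% against 43.2%), by 0.28 at 60 min (70.2% against 50.7%), by 0.16 without CAGL0M09955g (73.1% against 44.7%), by 0.17 without Scas551.1 (75.3% against 51.1%), by -0.15 without Scas719.24 (30.9% against 56.7%), by 0.23 in K. lactis (66.7% against 49.8%) and by 0.12 in S. pombe (59.1% against 31.9%). RLE factors moved it by -0.11 at 30 min (46.8% against 53.5%).

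Leaving out 1 library gave 0 to 3 genes called in the HA strain, 0 to 1 rows lower in S. paradoxus log phase, 1 to 4 higher at 30 min, 0 to 2 higher at 60 min, 0 to 1 lower in K. lactis, 0 to 1 higher and 277 to 635 genes in S. pombe, 2 to 4 lower between the C. glabrata and 2 to 4 between the N. castellii deletions, 0 to 1 higher and 736 to 1148 genes in the S. paradoxus deletion from 30 to 60 min, and 0 to 1 higher for the deletion effect over that interval. The replicate letters are not known to pair libraries and did not do so in the data. With the letter as a replicate block, 2963 genes were called in the S. cerevisiae deletion (3034 without) and 3 in the HA strain; 1 row lost its call, CAGL0F04719g between the C. glabrata deletions (adjusted p = 0.0511). Depth limits the lag phase most: at 34081 counts, deletion library A at 30 min gave 0 for 6 of the 10 rows.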

Other observations

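The authors' deposited microarray log ratios, of unstated base, sign and replication, give other values for some of these genes during the return to glucose. The labels name these columns only as derived from microarrays and do not say which samples each compares. Their sign was turned, on the assumption that they run as the authors' log2 ratios from sequencing, wild type over altered strain. Neither the samples compared nor the sign was checked for the microarray columns, and every direction given below rests on that assumption. In the authors' deposited table K. lactis GPH1 stood at 0.68, 1.62 and 1.40 at 30, 60 and 90 min, whereas the trehalose synthase row KLLA0B08822g stood at -0.53, -1.05 and -1.16. With the samples compared unknown, these values cannot be set against the log phase deletion effects. In the authors' deposited table the S. cerevisiae columns named BY and RM differ from each other and over time: GPH1 stood at -0.36, 0.76, -0.04 and -0.73 at 15, 30, 60 and 90 min in BY and at 0.47, 0.58 and 0.08 at 30, 60 and 90 min in RM, and GSY1 at -1.44, 0.26, -0.46 and -0.80 in BY and at 1.09, 0.42 and -0.46 in RM. In that deposited table, 9 of the 10 genes were positive in BY and 10 of 10 in RM at 30 min, after the sign was turned. The share of all genes positive in these columns was not computed, so these counts cannot be read as particular to the set. NTH1 was positive in all 7 of these deposited columns, at 0.36 to 2.52. No test was made, since replicates are not given.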
